A study of Homo sapiens with 6 samples.

Results

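The transcripts described here code for zinc finger (ZNF) proteins whose genes lie outside chromosome 19 and which were detected on all 6 arrays of the experiment. They were chosen by a gene symbol of ZNF followed by a digit, a chromosome other than 19 in the deposited annotation, and a detection p-value below 0.05 on each array. This gave 133 members out of 270 ZNF targets outside chromosome 19, 487 ZNF targets in all and 37879 targets on the array. Of the other ZNF targets outside chromosome 19, 75 were detected on no array and 62 on 1 to 5 arrays. A transcript recovered in only one kind of precipitate could therefore not become a member.

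RNA was measured in 3 control and 3 Stau1 immunoprecipitates (IPs) from HEK293T cells, a line derived from human embryonic kidney. Control cells carried an empty vector and Stau1 cells a plasmid for FLAG-tagged Stau155, the 55 kDa form of Staufen1. All cells were held in prometaphase, the stage of mitosis before chromosomes align, with nocodazole at 50 ng/ml for 15 h by the labels, and both groups were precipitated with an anti-FLAG antibody. The precipitated Stau1 was thus tagged and made from a plasmid, in addition to the cells' own Stau1. The paper reports that the tagged protein was less abundant than endogenous Stau1. The comparison asked which mRNAs came down with Stau1 more than with the antibody alone. The 6 arrays hold precipitated RNA only, so on them a transcript more abundant in the cells and one bound more often cannot be told apart. The authors compared total RNA of vector and Stau1 cells on other arrays, not used here, and reported few probes changed more than 2-fold. The labels do not say whether replicates came from separate cultures, and p-values measure the spread between these samples, which may be technical.

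Staufen1 binds double-stranded stretches of mRNAs and takes part in their transport, translation and decay. Most ZNF proteins hold C2H2 zinc fingers, short folds around a zinc ion that read DNA and sometimes bind RNA or other proteins. Many also carry a KRAB domain, which recruits the corepressor TRIM28 to silence chromatin. A minority serve elsewhere, in ribosome assembly, in ubiquitin transfer or at the mitotic spindle.

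All 133 members matched a gene in RefSeq (GRCh38.p14), 14 of them under another symbol. Among these, ZNF364 is now RNF115, ZNF650 is UBR3 and ZNF828 is CHAMP1. The deposited chromosome was blank for 4 members, and RefSeq places 2 of these, ZNF223 and ZNF699, on chromosome 19. Without them 68 of 131 members were higher in the Stau1 IPs, against 69 of 133 with them. The members closest to the detection threshold were ZNF660, ZNF295 and ZNF75A, with a highest detection p of 0.0461, 0.0448 and 0.0422. Just outside lay ZNF608, ZNF182 and ZNF778, at 0.0501, 0.0538 and 0.0553. On ZNF660 the signals were 113, 126 and 106 in the control IPs and 123, 128 and 134 in the Stau1 IPs, whereas ZNF608 had 131, 167 and 151 and then 115, 116 and 124. Both were dim, and the arrays' negative controls had medians between 77.6 and 89.6.

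The deposited signals are intensities in arbitrary units. The median signal of the members was 246, 323 and 306 on control IP 1, 2 and 3 and 326, 274 and 346 on Stau1 IP 1, 2 and 3. The standard error between the beads of an array had a median of 3.61% to 4.29% of a member's signal. The number of arrays, 3 per group, limits the precision. Differences given below are Stau1 IP minus control IP on the log2 scale after background correction, an offset of 16 and quantile normalization. The offset understates changes of dim transcripts.

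The arrays labelled control IP 2 and Stau1 IP 2 did not follow their labels over part of the targets, which bears on everything that follows. Across the 9884 targets with detection on every array, the one labelled Stau1 IP 2 correlated with control IP 3 at 0.971 and with Stau1 IP 1 and 3 at 0.937 and 0.939, while the array labelled control IP 2 correlated with Stau1 IP 1 and 3 at 0.982 and 0.983 and with control IP 1 and 3 at 0.975 and 0.980. These correlations are across genes, which are not independent replicates. The arrays kept their labels here and were not exchanged. Differences between the groups are therefore given with all 6 arrays and, for the named members, also without both arrays numbered 2, which leaves 2 against 2. STAU1 itself had signals of 2499, 3246 and 2758 in the control IPs and 2845, 1857 and 3130 in the Stau1 IPs. By the detection p it passed on 5 arrays only, with a highest value of 0.0542. It was lowest on the array labelled Stau1 IP 2, the groups overlapped, and the table does not say whether its probe sees the plasmid's message. The 7 markers fixed for HEK293T cells in prometaphase were detected on all 6 arrays. Of 8 markers of other cell types, 5 were detected on no array.

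By the labels, no member was enriched or depleted, which meant a fold over 2.5 with an unadjusted p under 0.05 in limma. The same rule called 0.0264% of all targets and 0.0708% of the detected ones enriched, and 0.0396% and 0.101% depleted. Detected here means on all 6 arrays. No member had an adjusted p under 0.05 by limma with Benjamini-Hochberg adjustment over all targets, and neither did any other target (0%). At an unadjusted p under 0.05, 16 members were higher (12% against 10.4% of detected targets) and 21 lower (15.8% against 12.1%). The methods' t-test called 0 at the same fold and 0 after Benjamini-Hochberg adjustment. Log2 differences ran from -1.26 to 0.96 with a median of 0.02, and 69 of 133 members (51.9%) were above 0, against 50% of detected targets. The median standard error was 0.22. The 79 detected ZNF transcripts of chromosome 19 had a median of 0.05. That difference was not tested.

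**Figure D1:**
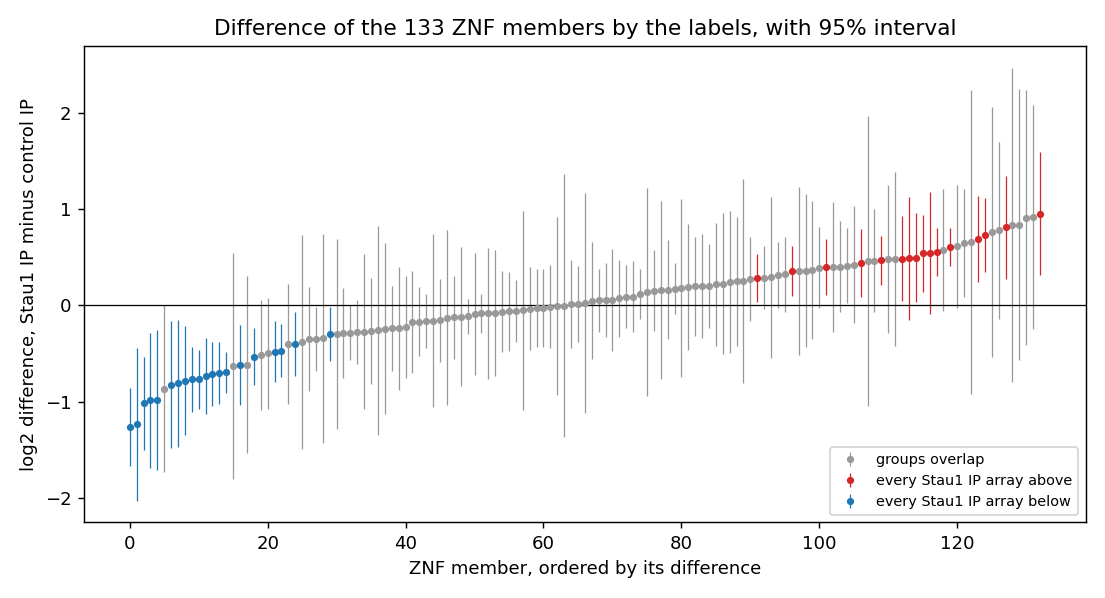
Log2 difference of each of the 133 ZNF members, Stau1 IP minus control IP by the labels (vertical axis), with members ordered by it (horizontal axis) and bars showing the 95% interval from limma with 3 arrays a group. Coloured points mark the 16 members with every Stau1 IP array above every control IP array after normalization and the 20 with every one below, which together span -1.26 to 0.96.

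For 36 members the groups did not overlap after normalization. In 16 (12%) all Stau1 IP arrays were higher, against 10.2% of detected targets, and in 20 (15%) all were lower, against 12.7%. An exact permutation test of 3 against 3 arrays cannot give a two-sided p below 0.1.

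The short list of mitotic ZNF proteins had 3 targets on the array and 2 members, and both lay lower in every Stau1 IP, as did 12.7% of detected targets. ZNF207 (BuGZ) binds microtubules and loads the checkpoint protein BUB3 on kinetochores. Its signals were 6404, 5904 and 5680 in the control IPs and 3763, 3408 and 3980 in the Stau1 IPs. All 6 arrays followed their labels, with the arrays numbered 2 beside their own group. On the log2 scale it measured 12.52 ± 0.11 in the control IPs and 11.83 ± 0.09 in the Stau1 IPs (SD, n = 3). The difference was -0.69 (SE 0.09), with an adjusted p of 0.155 by limma. Without both arrays numbered 2 it was -0.70 (SE 0.09) and passed, with an adjusted p of 0.0254 by limma. ZNF828 (CHAMP1), needed for the attachment of chromosomes to spindle microtubules, had signals of 1411, 1460 and 1483 in the control IPs and 797, 909 and 1103 in the Stau1 IPs. Here too the groups were well separated. Its difference was -0.73 (SE 0.16, adjusted p = 0.240 by limma), and -0.94 (SE 0.15, adjusted p = 0.0368 by limma) without the arrays numbered 2. Of detected targets, 8.92% passed as lower without those arrays.

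The largest differences below 0 belonged to ZNF721, ZNF800 and ZNF680. ZNF721 had signals of 247, 289 and 320 in the control IPs and 152, 148 and 177 in the Stau1 IPs. No array crossed between the groups. The difference was -1.26 (SE 0.17, adjusted p = 0.155 by limma), and without the arrays numbered 2 it fell by 1.47 (SE 0.16, adjusted p = 0.0174 by limma), past the 2.5-fold threshold. ZNF680 measured 184, 189 and 213 and then 139, 126 and 133, a difference of -1.02 (SE 0.20, adjusted p = 0.216 by limma), and -1.22 (SE 0.15, adjusted p = 0.0229 by limma) without the arrays numbered 2. ZNF800 measured 276, 366 and 317 and then 210, 126 and 249. For ZNF800 the array labelled Stau1 IP 2 was the lowest of all, and the difference of -1.23 (SE 0.32, adjusted p = 0.314 by limma) became -0.87 without the arrays numbered 2, where it passed (adjusted p = 0.0240 by limma).

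ZNF195 and ZNF706 were also lower in every Stau1 IP. ZNF195 had signals of 444, 315 and 275 in the control IPs and 233, 170 and 223 in the Stau1 IPs, and a difference of -0.98 (SE 0.30, adjusted p = 0.377 by limma), or -1.16 (SE 0.33, adjusted p = 0.145 by limma) without the arrays numbered 2. Control IP 1 was the highest array for it. ZNF706, which codes for a very short zinc finger protein, measured 300, 326 and 281 and then 183, 222 and 200. The groups did not overlap, and the difference of -0.82 (SE 0.27) became -1.20 (SE 0.11, adjusted p = 0.0146 by limma) without the arrays numbered 2. The rest of the 20 members with lower Stau1 IP arrays, ZNF462 among them, had differences between -0.99 and -0.30.

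For ZNF280D the value moved with the arrays numbered 2. Its signals were 396, 313 and 281 in the control IPs and 196, 324 and 211 in the Stau1 IPs, with Stau1 IP 2 among the control IPs and not among the Stau1 IPs. The difference was -0.63 (SE 0.48, adjusted p = 0.811 by limma), and -1.32 (SE 0.25, adjusted p = 0.0559 by limma) without the arrays numbered 2, where it missed the threshold.

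Among members with higher Stau1 IP arrays, ZNF672 had the largest difference of all members by the labels. Its signals were 533, 1046 and 811 in the control IPs and 1691, 937 and 1861 in the Stau1 IPs. As deposited, Stau1 IP 2 lay below control IP 2, and the groups separated only after normalization. The difference was 0.96 (SE 0.26, adjusted p = 0.328 by limma), and 1.31 (SE 0.20, adjusted p = 0.0348 by limma) without the arrays numbered 2, a fold of 2.48 just under the threshold. ZNF205, a repressor with a KRAB domain, had signals of 161, 212 and 228 and then 305, 274 and 304. Every Stau1 IP array was above every control IP array as deposited, including Stau1 IP 2. Its difference was 0.81 (SE 0.22, adjusted p = 0.324 by limma), and 0.61 (adjusted p = 0.300 by limma) without the arrays numbered 2, so that it passed in neither.

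ZNF747 is named after its values were seen, since it had the smallest standard error of the 16. It measured 339, 473 and 410 in the control IPs and 627, 494 and 650 in the Stau1 IPs, a difference of 0.61 (SE 0.08, adjusted p = 0.155 by limma), or 0.59 (SE 0.11, adjusted p = 0.0588 by limma) without the arrays numbered 2. The margin between control IP 2 and Stau1 IP 2 was narrow. ZNF740 had 132, 172 and 122 and then 206, 143 and 234, with Stau1 IP 2 below control IP 2 as deposited. Its difference was 0.69 (SE 0.18, adjusted p = 0.314 by limma), and 0.96 (adjusted p = 0.0239 by limma) without the arrays numbered 2.

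**Figure D2:**
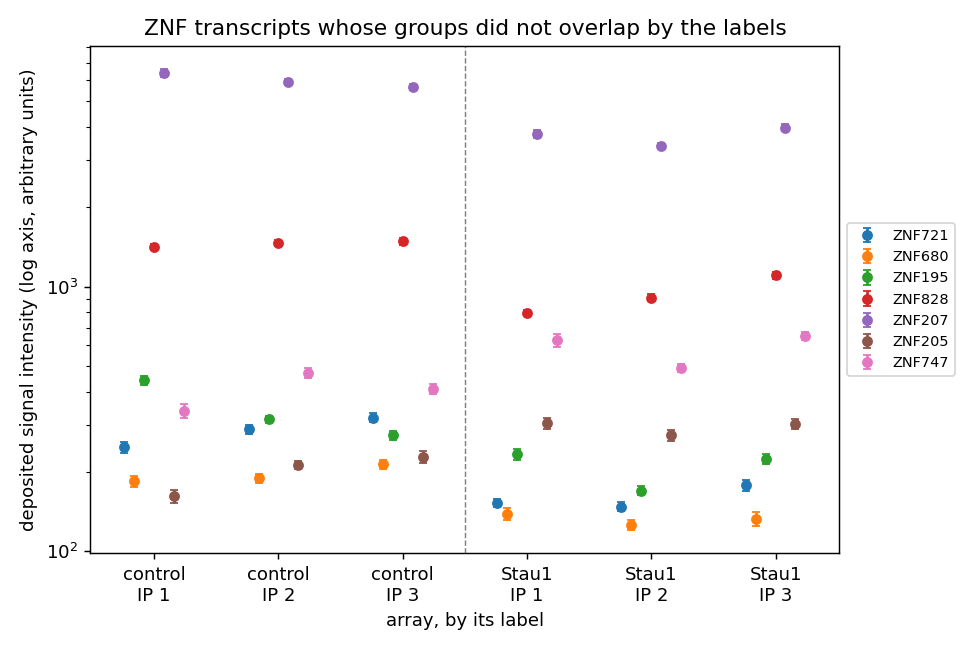
Deposited signal (log axis, arbitrary units) of 7 ZNF members on each of the 6 arrays, named by their labels, with bars for the standard error between beads. ZNF721, ZNF680, ZNF195, ZNF828 and ZNF207 lay lower in all 3 Stau1 IP arrays and ZNF205 and ZNF747 higher, with both arrays numbered 2 on the side of their own label.

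Another set of members split by array and not by label. In 19 members (14.3%) control IP 2, Stau1 IP 1 and Stau1 IP 3 all lay above control IP 1, control IP 3 and Stau1 IP 2, against 14.8% of detected targets. In 32 members (24.1%) the same arrays lay below the others, against 20.8%. The gap was over 1 on the log2 scale for 3 members, ZNF621, ZNF346 and ZNF512B (2.26% against 1.15% of detected and 0.467% of all targets). The counts of 19 and 32 were near the shares of detected targets. The share with the wide gap was above both backgrounds but rests on 3 members. No test of these differences was made.

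Without both arrays numbered 2, 8 members (6.02%) were enriched over 2.5-fold, against 3.26% of detected targets and 1.18% of all targets. ZNF721 alone was depleted (0.752% against 0.87% of detected and 0.288% of all targets). All 8 were among the 19 just described. They were chosen by the difference of Stau1 IP 1 and 3 from control IP 1 and 3, so this overlap was in part fixed by the choice. The share of enriched detected targets with the same pattern was not counted. At an adjusted p under 0.05 by limma, 17 members rose (12.8%), including all 8, against 9.37% of detected and 3.42% of all targets. At the same threshold of limma 15 members fell (11.3%), against 8.92% and 2.76%. Above 0 were 55 of 133 members (41.4% against 43.9% of detected targets), and the median was -0.13, against -0.08 over the detected targets. Of the 79 ZNF transcripts of chromosome 19, 6 were enriched (7.59%).

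ZNF346 (JAZ) had one of the clearest patterns. It is a zinc finger protein that binds double-stranded RNA, as Stau1 does. Its signals were 152, 452 and 180 in the control IPs and 492, 184 and 510 in the Stau1 IPs. The array labelled control IP 2 sat with Stau1 IP 1 and 3, and the array labelled Stau1 IP 2 with control IP 1 and 3. By the labels the difference was 0.84 (SE 0.57, 95% interval -0.57 to 2.25, adjusted p = 0.783 by limma). Without these arrays it was 1.80 (SE 0.14, adjusted p = 0.0129 by limma), a fold of 3.48.

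ZNF512B had signals of 203, 687 and 318 in the control IPs and 834, 236 and 988 in the Stau1 IPs. Its difference by the labels was 0.84 (SE 0.66, adjusted p = 0.823 by limma), and without the arrays numbered 2 it was 1.91 (SE 0.27, adjusted p = 0.0302 by limma), the largest of the members. ZNF786, a KRAB protein, had 247, 845 and 412 and then 1050, 376 and 1143. The same arrays were high in both genes, and for ZNF786 the difference went from 0.92 (SE 0.54) to 1.76 (SE 0.28, adjusted p = 0.0384 by limma). ZNF500 measured 390, 930 and 511 and then 1478, 461 and 1518, with a difference of 0.92 (SE 0.47) by the labels and 1.68 (SE 0.14, adjusted p = 0.0137 by limma) without the arrays numbered 2. For ZNF500 control IP 2 lay between the remaining control IPs and the high Stau1 IPs.

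ZNF789 and ZNF621 were dimmer. ZNF789 had signals of 150, 279 and 142 in the control IPs and 433, 129 and 346 in the Stau1 IPs, and a difference of 1.66 (SE 0.20, adjusted p = 0.0221 by limma) without the arrays numbered 2. ZNF621 had 213, 559 and 220 and then 542, 173 and 647, and there 1.49 (SE 0.09, adjusted p = 0.00917 by limma). Stau1 IP 2 was the lowest of the 6 arrays for both, and by the labels their differences were 0.66 (SE 0.64) and 0.46 (SE 0.61). ZNF696 measured 414, 837 and 607 and then 1296, 498 and 1425, a difference of 0.78 (SE 0.37) by the labels. Without the arrays numbered 2 it was 1.33 (SE 0.19, adjusted p = 0.0297 by limma), a fold of 2.52 at the edge of the threshold.

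**Figure D3:**
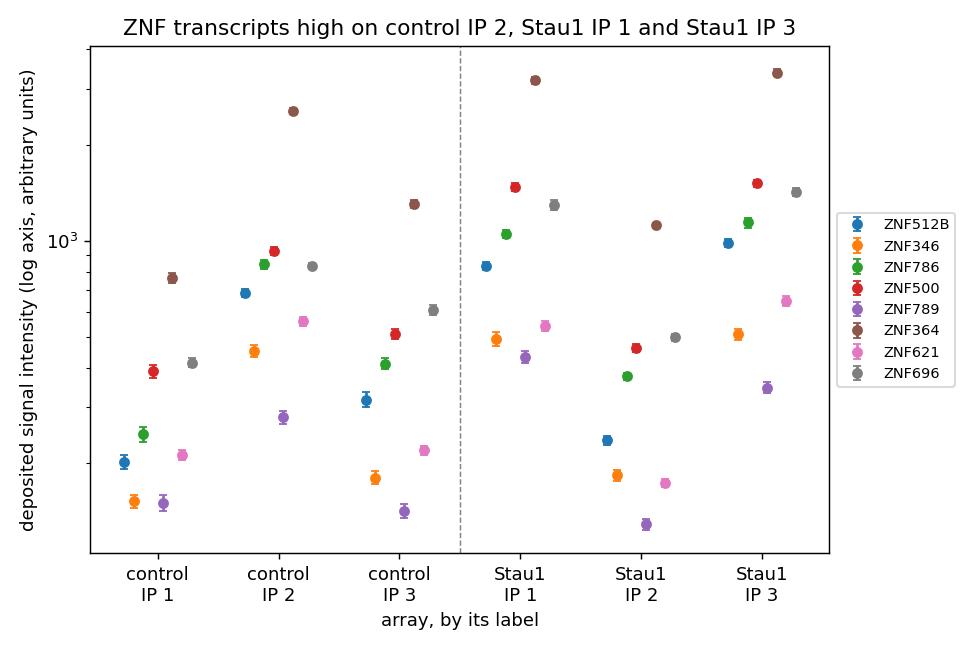
Deposited signal (log axis, arbitrary units) on each of the 6 arrays, named by their labels, of the 8 ZNF members enriched over 2.5-fold when both arrays numbered 2 were left out, with bars for the standard error between beads. All 8 were higher on control IP 2, Stau1 IP 1 and Stau1 IP 3 than on the other arrays, for example ZNF346 at 452, 492 and 510 against 152, 180 and 184. Their choice already favoured Stau1 IP 1 and 3 above control IP 1 and 3.

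The list of ubiquitin ligases gave 3 members, ZNF364, ZNF650 and ZNF598, all above 0 by the labels. None was called by the labels, and without the arrays numbered 2 ZNF364 and ZNF650 passed the adjusted p of limma as higher, as did 9.37% of detected targets. ZNF364 (RNF115) carries a RING finger and had signals of 765, 2559 and 1306 in the control IPs and 3192, 1119 and 3378 in the Stau1 IPs. Its difference went from 0.77 (SE 0.53, adjusted p = 0.787 by limma) to 1.61 (SE 0.24, adjusted p = 0.0330 by limma), a fold of 3.06. ZNF650 (UBR3), a ligase of the UBR family, had 193, 312 and 226 and then 328, 171 and 369, and without the arrays numbered 2 a difference of 0.66 with an adjusted p of 0.05 by limma, at the threshold. The same arrays as before were the high ones. ZNF598 marks collided ribosomes with ubiquitin and measured 1358, 2143 and 1775 and then 2143, 1805 and 2604. The groups overlapped, and the difference of 0.29 (SE 0.13, adjusted p = 0.596 by limma) became 0.44 (adjusted p = 0.183 by limma).

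The list of RNA and ribosome proteins had 6 targets on the array, of which 5 were members, 2 of them above 0 by the labels. Without the arrays numbered 2 the median of the 5 was -0.37. Beside ZNF346 and ZNF598 it held ZNF593, a factor of the large ribosomal subunit's maturation, with signals of 1650, 1851 and 1823 in the control IPs and 1042, 2775 and 1214 in the Stau1 IPs. The array labelled Stau1 IP 2 was the highest of the 6 and Stau1 IP 1 and 3 the lowest. By the labels the difference was -0.34 (SE 0.44, adjusted p = 0.913 by limma), and without the arrays numbered 2 ZNF593 fell by 0.92 (SE 0.09, adjusted p = 0.0160 by limma). ZNF622, which acts at a late step of the same pathway, had 3633, 3507 and 4634 and then 3222, 4155 and 3719. The groups overlapped, and its difference was -0.12 (95% interval -0.56 to 0.31), and -0.37 (adjusted p = 0.236 by limma) without the arrays numbered 2. The fifth, ZNF385A, is named after its values were seen. It ranged from 820 to 3166 within the Stau1 IPs alone, with the highest signal on the array labelled Stau1 IP 2, and its difference went from -0.0014 to -0.72 (adjusted p = 0.284 by limma) without the arrays numbered 2.

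Of 22 activators and chromatin partners on the array, 13 were members, 6 of them above 0 by the labels, with a median of -0.01, or -0.27 without the arrays numbered 2. ZNF76, a relative of the activator ZNF143, had signals of 338, 481 and 362 in the control IPs and 723, 400 and 761 in the Stau1 IPs. Stau1 IP 2 lay below control IP 2 as deposited, and after normalization the groups did not overlap. The difference was 0.73 (SE 0.16, adjusted p = 0.236 by limma), and 0.95 (SE 0.08, adjusted p = 0.0141 by limma) without the arrays numbered 2. ZNF219, a transcription factor that partners SOX9, measured 583, 1167 and 635 and then 1288, 845 and 1441, and rose by 1.01 (SE 0.08, adjusted p = 0.0132 by limma) without those arrays. These were the 2 of the 13 that passed there, both higher, against 9.37% of detected targets that passed as higher and 8.92% as lower. ZNF462 had 180, 262 and 321 and then 155, 137 and 192, a difference of -0.99 (SE 0.29, adjusted p = 0.360 by limma), and -1.02 (adjusted p = 0.247 by limma) without the arrays numbered 2. Its signals as deposited overlapped by control IP 1 and Stau1 IP 3. ZNF277 measured 627, 590 and 323 and then 353, 200 and 397, a difference of -0.87 (SE 0.35, adjusted p = 0.536 by limma), and -0.62 (adjusted p = 0.584 by limma) without the arrays numbered 2.

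TRIM28 and its partners, through which KRAB zinc finger proteins act, were read from a list of 20 genes, of which 13 were detected on all arrays. By the labels 5 of the 13 were above 0 and none was called. After normalization 1 of them, TRIM28, was higher in every Stau1 IP array and 2, HDAC2 and PPHLN1, were lower, with differences of -0.39 and -0.59. Of detected targets, 10.2% were higher and 12.7% lower in this way. TRIM28 had signals of 2187, 2786 and 2119 in the control IPs and 3442, 3919 and 4602 in the Stau1 IPs. Every Stau1 IP array was above every control IP array, and the difference was 0.74 (SE 0.10, adjusted p = 0.159 by limma). Without the arrays numbered 2 TRIM28 rose by 0.79 (adjusted p = 0.0422 by limma), and DAXX, a histone chaperone, fell by 1.21 (adjusted p = 0.0104 by limma). These 2 of the 13 passed there, against 9.37% of detected targets that passed as higher and 8.92% as lower. DAXX went from 1272, 958 and 1275 to 684, 1848 and 733, highest on the array labelled Stau1 IP 2.

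ZNF genes often lie in clusters of neighbours that arose by duplication. Chromosome 16 held 20 members, 14 of them above 0 by the labels and 11 without the arrays numbered 2. Chromosome 7 held 18, with 12 and 10 above 0. Over all detected targets 50% were above 0 by the labels and 43.9% without the arrays numbered 2. On chromosome 10, 2 of 9 members were above 0 by the labels, with a median of -0.27, and 1 without the arrays numbered 2, with a median of -0.60. By the gene order of RefSeq, 8 members on chromosome 7 formed a run from ZNF786 to ZNF467 with at most 5 genes between neighbours. In this run 7 of 8 were above 0 by the labels, with a median of 0.21. Without the arrays numbered 2 this was 5 of 8, with a median of 0.10 and a range of -0.20 to 1.76, the top value being ZNF786. A second run on chromosome 7 held ZNF789 and 3 neighbours, from -0.65 to 1.66. In a run of 4 on chromosome 10 all differences lay below 0 without the arrays numbered 2, as they did in a run of 3 on chromosome 6. The same held for all members of several other chromosomes, such as the 5 of chromosome 4 and the 4 of chromosome 9.

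By array, the members' median deviation from the mean of the 6 arrays was -0.11, -0.07 and 0.17 on the log2 scale in the control IPs and -0.05, 0.05 and -0.09 in the Stau1 IPs. The largest shift was that of control IP 3, where 94 of 133 members lay above their own mean. Over all detected targets this array's median deviation was 0.03, with 5469 of 9884 above their own mean. The ZNF transcripts of chromosome 19 had a median deviation of 0.16 there, with 52 of 79 above, so the shift was not particular to the members.

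**Figure D4:**
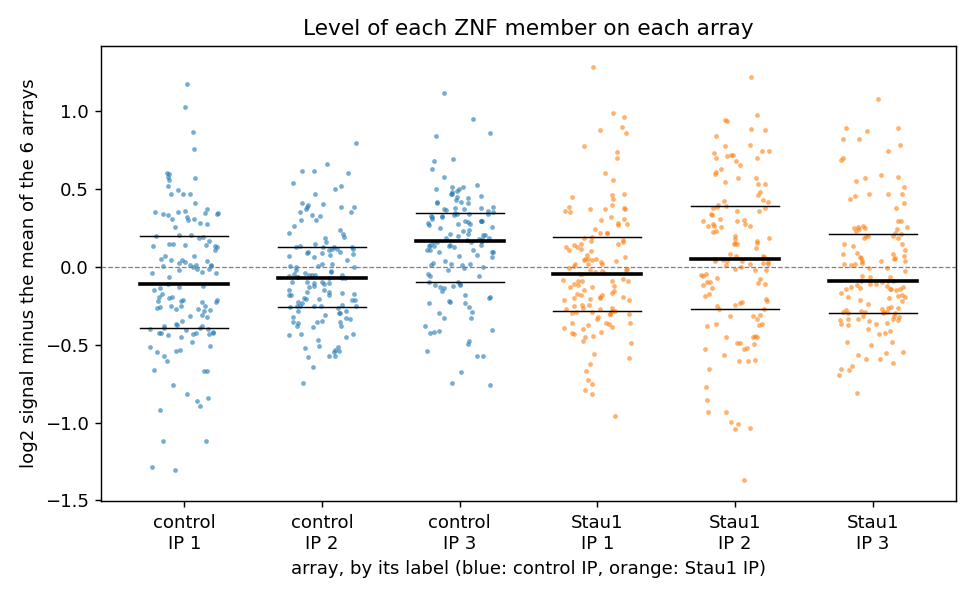
Log2 signal of each of the 133 ZNF members on each array (one point a member) after subtracting that member's mean over the 6 arrays, with arrays named by their labels. Thick lines show the median and thin lines the quartiles, and the median runs from -0.11 on control IP 1 to 0.17 on control IP 3.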

How the data were processed

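The authors recorded Illumina HumanWG-6 v3 arrays in BeadStudio and deposited, per target and array, the signal intensity, the bead standard error, also an intensity, the bead number and a detection p-value. The values carry neither background subtraction nor normalization, and probes of a target were already combined. The program named in the methods was not run.

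The signals were corrected by normexp, with the mean and SD of negative controls read from the detection p-values, given an offset of 16, put on the log2 scale and quantile normalized. Groups were compared over all 37879 targets with lmFit and eBayes of limma 3.58.1 (R 4.3.3, mgcv 1.9.3), with Benjamini-Hochberg adjustment. Groups came from the labels. How negative controls were read, and the background term of the variance stabilizing alternative, were settled after values had been seen. The inference in limma gave a negative SD of 460 to 608, against 12.0 to 22.9. With the term first used, that alternative had called fewer members.

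The members, lists and the comparison without the arrays numbered 2 were chosen with earlier results of these data known. Named were the 10 highest and 5 lowest differences in each comparison, up to 4 members of each role list, and 3 targets on each side of the detection threshold. Protein features were not analysed here. The steps were tested on simulated data in which every array followed its label. That check does not show what could be detected in these data. Alternatives covered the transformation, centring, background, offset, filter, test, pairing, thresholds and each array left out. Deviations of same-numbered arrays from their own group means correlated at -0.41, -0.74 and -0.39, so the numbers were not taken to pair the samples.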

Additional observations from a re-analysis of the deposited data

How the results depend on the processing

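By the labels, the count of enriched members stayed at 0 under every alternative that kept all 6 arrays. Leaving out 1 array gave 0 to 4 enriched members, with 4 (ZNF500, ZNF512B, ZNF786 and ZNF789) without Stau1 IP 2 and 2 (ZNF346 and ZNF786) without control IP 2. It gave 0 to 1 depleted, which was ZNF721 without either array numbered 2 and ZNF800 without Stau1 IP 1 or Stau1 IP 3. It gave 0 to 0 past the adjusted p by limma, a median difference of -0.05 to 0.11 and 62 to 80 members above 0. A threshold of 2-fold gave 3 depleted (ZNF721, ZNF800 and ZNF680). Median centring gave 1 past the adjusted p by limma, ZNF721 at 0.0176. With detection p below 0.01 the median of the 91 members left was 0.15. Without both arrays numbered 2 there were 8 enriched, 1 depleted and 32 past the adjusted p by limma, with a median of -0.13. Fitted over targets detected on all arrays, these were 8, 1 and 46, and -0.13. With the variance stabilizing transformation and robust spline normalization, 5 were enriched (ZNF346, ZNF364, ZNF500, ZNF512B and ZNF786) and 19 passed. These last fits were chosen after seeing the data, as was limma's own reading of the negative controls. That reading gave 0 enriched, depleted or past the adjusted p by limma and a median of 0.0077, and it shrank the differences of dim members, ZNF721 from -1.26 to -0.13, ZNF346 from 0.84 to 0.13, ZNF205 from 0.81 to 0.096 and ZNF680 from -1.02 to -0.065, while ZNF207 was at -0.84 and ZNF828 at -0.73.

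Of 540 values for 30 named members, 4 reversed in sign and 54 newly passed the adjusted p. ZNF295 came to 0.074 without both arrays numbered 2 under the variance stabilizing transformation, ZNF75A ranged from -0.17 (without control IP 1) to 0.11 (without control IP 3), with 0.064 without Stau1 IP 1, and ZNF622 from -0.37 (without both arrays numbered 2) to 0.027 (without control IP 3). The cause was not tested. With the replicate block, the number of members past the adjusted p by limma was 0, as without it, and 69 were above 0. The dimmest members, such as ZNF660, lie close to the negative controls.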
